A study of Mus musculus with 20 samples.

Results

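The genes that carry and move glucose transporters were followed in the epididymal fat of male C57BL6/J mice, an inbred laboratory strain, during the first days of high-fat feeding. The 10 genes were Slc2a4, Slc2a1, Slc2a5, Trarg1, Lnpep, Sort1, Vamp2, Tbc1d4, Rab10 and Myo1c. They were taken by name from the 39179 gene IDs of a table of raw read counts. The rule uses no measured value, but the genes were proposed with earlier results of these data known. RNA was sequenced from mice on normal chow (day 0) and from mice on a high-fat diet (HFD) at 2, 4, 6 and 14 days of feeding, with 4 libraries in each of the 5 groups. No genotype or agent other than the diet is given for any group. The labels give no chow group at a later day, so diet and elapsed time cannot be told apart here. The labels call the libraries biological replicates without naming the animals, so the p-values measure the spread between these libraries.

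Fat cells take up glucose mainly through GLUT4, the protein of Slc2a4, which at rest is held inside the cell in small storage vesicles. Insulin acts through the kinase Akt on a Rab GTPase-activating protein, AS160 (Tbc1d4). Once AS160 is restrained, Rab10 becomes active and the vesicles move to the plasma membrane, where they dock and fuse. The vesicles carry further proteins with GLUT4, among them the aminopeptidase IRAP (Lnpep), the sorting receptor sortilin (Sort1), the fusion protein Vamp2 and the small membrane protein Trarg1. GLUT1 (Slc2a1) serves uptake without insulin, and GLUT5 (Slc2a5) carries fructose. These proteins are controlled largely by where they sit in the cell, which read counts do not measure.

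The libraries held 1916829 to 38832429 counts. Levels are in CPM, the reads of a gene after libraries are scaled to a common total. Means have an SD over 4 libraries unless another n is given. Changes are log2 ratios of an HFD group over chow, with a standard error. They were tested with edgeR's quasi-likelihood test in 1 fit of all 20 libraries. Benjamini-Hochberg adjustment ran over the 15254 genes tested, and "called" means an adjusted p below 0.05. All 10 genes passed the filter on low counts, Slc2a5 mainly through its chow libraries, where it was high. Some libraries stood apart. Chow replicate 4 had 420.5 CPM summed over 7 markers of epididymis and ductal epithelium, against 4.07 to 24.5 CPM in the other 19 libraries. Day 2 replicate 1 had the smallest total. Adipocyte markers were strong in every library, with 21769 to 46243 CPM summed over 10 genes. Their sum was lowest in day 4 replicates 2, 3 and 4 (21769 to 23464 CPM, against 24408 to 44263 CPM on chow). On day 4, 5 of the 10 had a change above 0. Of the 10, 1 was called higher and 3 lower, against 18% and 17.3% of all genes. Day 4 replicates 2, 3 and 4 also had 425 to 526 CPM of 8 markers of dividing cells, against 12.6 to 37.8 CPM on chow. Day 6 replicate 4 had 304 CPM of them. The sum of 8 endothelial markers was 1620 to 1908 CPM in day 4 replicates 2 to 4 and 1798 CPM in day 6 replicate 4. It was 1005 CPM in day 4 replicate 1 and 842 to 1134 CPM on chow. On day 4, 5 of these 8 were called higher, where 18% of all genes were. Without chow replicate 4 and day 2 replicate 1 together, 2 were. Skeletal muscle is the other large site of GLUT4, and 7 of its markers summed to 4.28 to 45.7 CPM in 19 libraries and 70.4 CPM in day 6 replicate 2. Acta1 held 7146 of those reads over all libraries, while Ckm and Myh4 had 6 each. Summed markers of some other cell types were mostly lower on HFD. The summed level of 9 mesothelial markers was 114 to 174 CPM (day 2), 74.4 to 217 (day 4), 165 to 289 (day 6) and 163 to 346 (day 14), against 365 to 481 CPM on chow. Of these 9, 8, 9, 2 and 0 fell on days 2, 4, 6 and 14 by edgeR, where 1.96%, 17.3%, 1.46% and 0.302% of all genes were called lower. On day 2, 0 were called without day 2 replicate 4, or without chow replicate 4 and day 2 replicate 1 together (7 over all genes in the latter fit). The sum of 7 progenitor markers was 874 to 1954 CPM in HFD libraries, against 1803 to 2220 CPM on chow, with 1, 3, 0 and 0 of 7 called lower on those days. On the same days 1, 2, 2 and 2 of the 7 had a change above 0, and 0 were called higher. The sum of 9 macrophage markers was 726 to 1188 CPM on day 2, against 1267 to 1512 CPM on chow. It overlapped with chow on the later days, and 0 of the 9 were called on any HFD day. The sum of 6 brown adipocyte markers was 31.1 to 40.4 CPM on day 4, against 7.57 to 20.5 CPM on chow. Of them 4 were tested, and 1, 2, 2 and 0 were called higher on days 2, 4, 6 and 14. In these bulk samples, fewer cells of a type and less RNA per cell cannot be told apart.

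Of the 10 genes, 3 were called on day 2, where 4.39% of all genes tested were called. Trarg1 and Myo1c rose (2.43% of all genes were called higher) and Slc2a5 fell (1.96% were called lower). On day 4, 6 were called and 35.3% of all genes were. Trarg1 and Myo1c rose (18% called higher), while Slc2a5, Lnpep, Sort1 and Vamp2 fell (17.3% called lower). On day 6 Trarg1, Myo1c and Slc2a5 were called again, against 3.45% of all genes (1.99% higher, 1.46% lower). On day 14 the same genes were called, against 1.18% of all genes (0.878% higher, 0.302% lower). For the mean of the 4 HFD days, 4 of the 10 were called, Lnpep being the addition, against 22.8% of all genes (10.6% higher, 12.2% lower). In the test of any difference between the 5 groups 5 were called, namely Trarg1, Slc2a5, Lnpep, Myo1c and Vamp2, against 19.6% of all genes. The 4 comparisons with day 0 share the same chow libraries. All these counts include Slc2a5, which passed the filter on low counts mainly through its chow libraries. Without chow replicate 4 and day 2 replicate 1, a fit chosen after the data were seen, 1 gene was called on day 2 (Trarg1), 6 on day 4, none on day 6 and 2 on day 14 (Trarg1 and Slc2a5).

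**Figure D1:**
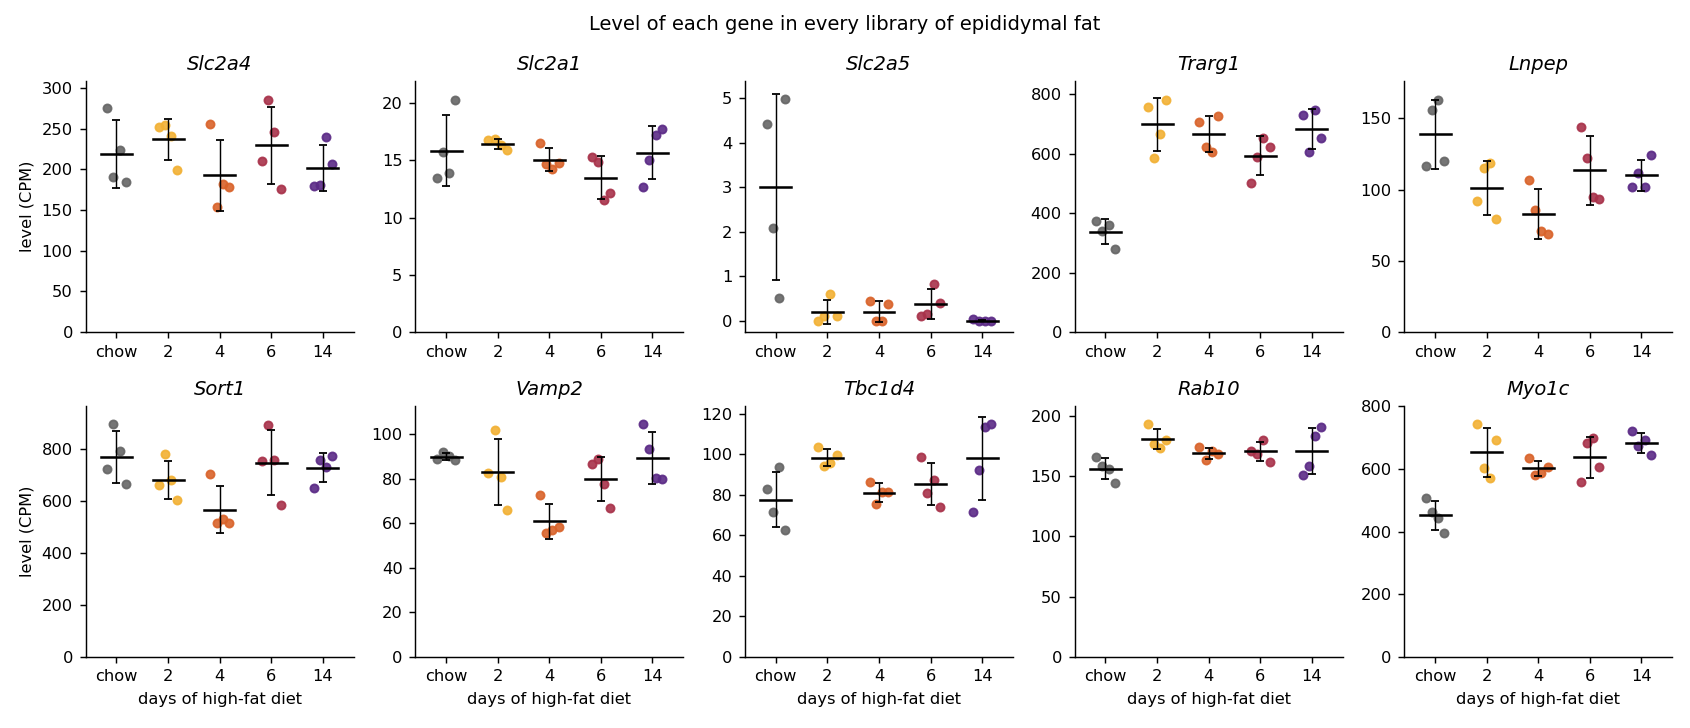
Level in CPM (y axis) of each of the 10 genes in every library, on chow and after 2, 4, 6 and 14 days of HFD (x axis, categories). Points are libraries, and black lines give the mean and SD of 4. Every HFD library lies above all 4 chow libraries for Trarg1 and for Myo1c, and Slc2a4 overlaps with chow on every day.

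Slc2a4 (ENSMUSG00000018566), the gene of GLUT4, did not pass the test on any day. Slc2a4 measured 275, 190.4, 224 and 185 CPM in the 4 chow libraries on day 0, and 252, 254, 241 and 199 CPM on day 2. It measured 255, 154, 182 and 179 CPM on day 4, 209.6, 285, 246 and 176 CPM on day 6 and 179, 181, 239 and 207 CPM on day 14. The highest library was day 6 replicate 2, also the library with the most muscle markers, whose part in its level was not tested, and the lowest day 4 replicate 2, and every HFD group overlapped with chow. Its log2 change was 0.11 ± 0.17 (day 2), -0.18 ± 0.17 (day 4), 0.07 ± 0.17 (day 6) and -0.12 ± 0.17 (day 14). Adjusted p was 0.419 to 0.845 in edgeR's quasi-likelihood test. The 95% intervals of the change were -0.24 to 0.47 (day 2), -0.54 to 0.17 (day 4), -0.28 to 0.42 (day 6) and -0.47 to 0.23 (day 14). All 4 intervals span both directions. On day 6 the direction turned when the counts were scaled by library size only (-0.06). That scaling put the median change of all genes at -0.14 (day 2), -0.13 (day 4), -0.14 (day 6) and -0.10 (day 14), and changes here are relative to the TMM scale.

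Slc2a1 (ENSMUSG00000028645), the gene of GLUT1, was scarce and did not pass the test on any day either. Slc2a1 measured 13.4, 15.7, 13.9 and 20.3 CPM in the 4 chow libraries on day 0, and 16.7, 16.9, 16.3 and 15.9 CPM on day 2. It measured 16.5, 14.7, 14.2 and 14.8 CPM on day 4, 15.2, 14.9, 11.5 and 12.2 CPM on day 6 and 12.7, 15.03, 17.2 and 17.7 CPM on day 14. Chow replicate 4 was the highest library. The log2 change was 0.05 ± 0.14 (day 2), -0.07 ± 0.14 (day 4), -0.23 ± 0.13 (day 6) and -0.03 ± 0.13 (day 14), with adjusted p of 0.286 to 0.951 in edgeR's quasi-likelihood test. Its sign is not settled on days 2, 4 and 14: it turned on day 2 with scaling by library size only (-0.07), and on days 4 and 14 without chow replicate 4 and day 2 replicate 1 (0.08 and 0.12). Its 95% interval was -0.24 to 0.34 on day 2 and -0.36 to 0.22 on day 4. The antisense gene Gm12868 overlaps 105 exon bases of Slc2a1 in GENCODE vM21. It had 9 reads in all libraries together, against 5236 reads of Slc2a1.

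Slc2a5 (ENSMUSG00000028976), the gene of the fructose transporter GLUT5, fell on every HFD day, at very low counts. The chow libraries held 76, 18, 20 and 160 reads. The day 2 libraries held 0, 2, 16 and 1, the day 4 libraries 7, 0, 0 and 6, and the day 6 libraries 3, 4, 9 and 13. The day 14 libraries held 1, 0, 0 and 0 reads, so 1 read stood in 56214912 counts. As levels, chow libraries had 4.42, 2.09, 0.506 and 4.99 CPM, and no HFD library passed 0.837 CPM (day 6 replicate 3). Days 4 and 14 did not overlap with chow, while day 2 and day 6 did, through chow replicate 3. Pooled over libraries, the ratio of chow over day 2 was 8.35 (95% counting interval 5.25 to 14.1). It was 8.72 over day 4 (5.01 to 16.6), 9.12 over day 6 (6.21 to 13.9) and 161 over day 14 (28.6 to 6376). These intervals cover counting error only.

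In edgeR's quasi-likelihood test the log2 change of Slc2a5 was -3.30 ± 0.78 on day 2 (adjusted p = 0.0272), -3.32 ± 0.80 on day 4 (adjusted p = 0.00486) and -3.14 ± 0.71 on day 6 (adjusted p = 0.0332). On day 14 the adjusted p was 0.00649, and a fitted change is not given for 1 read. At these low counts the fitted changes on the other days are not stable either. Because Slc2a5 passed the filter on low counts mainly through its chow libraries, these calls are no support apart from that filter. Chow replicate 4, with the epithelial markers, held 160 of the 274 chow reads. Without it the pooled ratio of chow over day 2 was 5.18 (3.17 to 8.93), over day 4 5.41 (3.04 to 10.5), over day 6 5.66 (3.74 to 8.83) and over day 14 99.8 (17.6 to 3976). Without it edgeR's quasi-likelihood test gave an adjusted p of 0.0861 on day 2 and 0.112 on day 6, and 0.0159 on day 4 and 0.0222 on day 14. Chow replicate 1, with 14.9 CPM of the epithelial markers, had 4.42 CPM of Slc2a5. The mesothelial and progenitor sums given above were also mostly lower on HFD. The parts of these and of the epithelial markers in the Slc2a5 falls were not tested. The day 2 call was also lost without chow replicate 2, day 2 replicate 1 or day 2 replicate 4. The day 6 call was also lost without day 6 replicate 2, 3 or 4. Those on days 4 and 14 were kept in all 20 fits without 1 library. In the fits of only chow and day 4, and of only chow and day 14, the filter on low counts removed Slc2a5, so it had no result there. With limma-voom Slc2a5 was called on none of the 4 days (adjusted p 0.127, 0.0673, 0.0719 and 0.0564 on days 2, 4, 6 and 14).

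Promoter sequences were at hand from RefSeq (build GRCm38.p6) for 6 of the 10 genes, as windows from 250 bases before to 50 after the gene start. These 3 are shown because their genes had different outcomes: Slc2a5 fell and Myo1c rose on every HFD day, and Slc2a1 passed the test on none. Slc2a5 is chr4:150119094-150119393 and Slc2a1 chr4:119108495-119108794. Myo1c is chr11:75650269-75650568, the most upstream of its 3 windows. All are on the plus strand, and read counts per gene do not tell which start was used. Capitals mark matches, on either strand, to 3 motifs. The GC box, bound by Sp1, was searched as GGGCGG. The CAAT box was searched with the letters CCAAT. The core promoter motif of the TATA-binding protein was searched as TATAAA.
Slc2a5: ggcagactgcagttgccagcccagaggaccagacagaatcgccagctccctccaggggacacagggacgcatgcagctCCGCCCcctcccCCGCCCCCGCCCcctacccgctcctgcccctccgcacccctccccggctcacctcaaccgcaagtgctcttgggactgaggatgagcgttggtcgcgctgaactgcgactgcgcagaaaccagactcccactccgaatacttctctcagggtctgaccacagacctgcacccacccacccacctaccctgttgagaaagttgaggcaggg
Slc2a1: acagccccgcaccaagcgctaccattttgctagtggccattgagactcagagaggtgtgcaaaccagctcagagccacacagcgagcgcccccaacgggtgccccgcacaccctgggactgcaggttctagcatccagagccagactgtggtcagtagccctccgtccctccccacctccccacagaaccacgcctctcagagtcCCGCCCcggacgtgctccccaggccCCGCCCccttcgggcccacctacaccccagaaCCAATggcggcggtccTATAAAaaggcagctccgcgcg
Myo1c: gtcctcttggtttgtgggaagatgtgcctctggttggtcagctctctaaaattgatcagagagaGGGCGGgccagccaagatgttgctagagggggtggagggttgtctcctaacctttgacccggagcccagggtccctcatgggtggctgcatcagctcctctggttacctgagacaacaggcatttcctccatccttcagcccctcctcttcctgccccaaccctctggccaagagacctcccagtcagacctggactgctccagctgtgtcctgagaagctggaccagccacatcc
The Slc2a5 window held 3 GC boxes and neither of the other motifs. The Slc2a1 window held 2 GC boxes, 1 CAAT box and 1 core motif, and the Myo1c window 1 GC box. No matches overlapped. The GC box was present in 35.7% of all 32851 RefSeq windows, the CAAT box in 37.4% and the core motif in 13.6%. The E-box CACGTG was searched too and is in 7.15% of all windows. So were the nuclear receptor motif AGGTCA (16.3%) and a C/EBP-type palindrome, TTGCNNCAA (2.08%). The letters of these 3 did not occur in the windows shown. The matches describe the letters only.

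Trarg1 (ENSMUSG00000046275), which encodes a small membrane protein of the GLUT4 vesicles that aids their traffic, rose on every HFD day to about the same level. Trarg1 measured 372, 341, 359 and 278 CPM in the 4 chow libraries on day 0, and 758, 587, 667 and 782 CPM on day 2. It measured 707, 623, 607 and 728 CPM on day 4, 502, 590.0, 654 and 624 CPM on day 6 and 729, 604, 746 and 651 CPM on day 14. The lowest HFD library (day 6 replicate 1) lay above the highest chow library, so no HFD group overlapped with chow. Group means were 698 ± 89.0 CPM (day 2), 666 ± 60.1 (day 4), 593 ± 65.5 (day 6) and 683 ± 66.6 (day 14), against 338 ± 41.6 CPM on chow (SD, n = 4 each).

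The log2 change of Trarg1 in edgeR's quasi-likelihood test was 1.05 ± 0.12 on day 2 (adjusted p = 0.000970), 0.98 ± 0.12 on day 4 (adjusted p = 0.000654), 0.81 ± 0.12 on day 6 (adjusted p = 0.00707) and 1.02 ± 0.12 on day 14 (adjusted p = 0.000530). Ranked by p among all 15254 genes, it stood at place 1 (day 2), 3 (day 4), 4 (day 6) and 2 (day 14). Over the 4 HFD days together it was 0.96 ± 0.10 higher, with 16 of 16 HFD libraries above every chow library. The call held in all 20 fits without 1 library on each day. On day 6 it was lost in a fit of only chow and day 6 (adjusted p = 0.102, edgeR quasi-likelihood test) and without chow replicate 4 and day 2 replicate 1 (adjusted p = 0.0735 in the same test). Over all genes those fits called 0 and 3 on day 6. Between HFD days Trarg1 did not pass the test (log2 change 0.20 ± 0.12 for day 14 over day 6, edgeR quasi-likelihood test, adjusted p = 1.000).

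**Figure D2:**
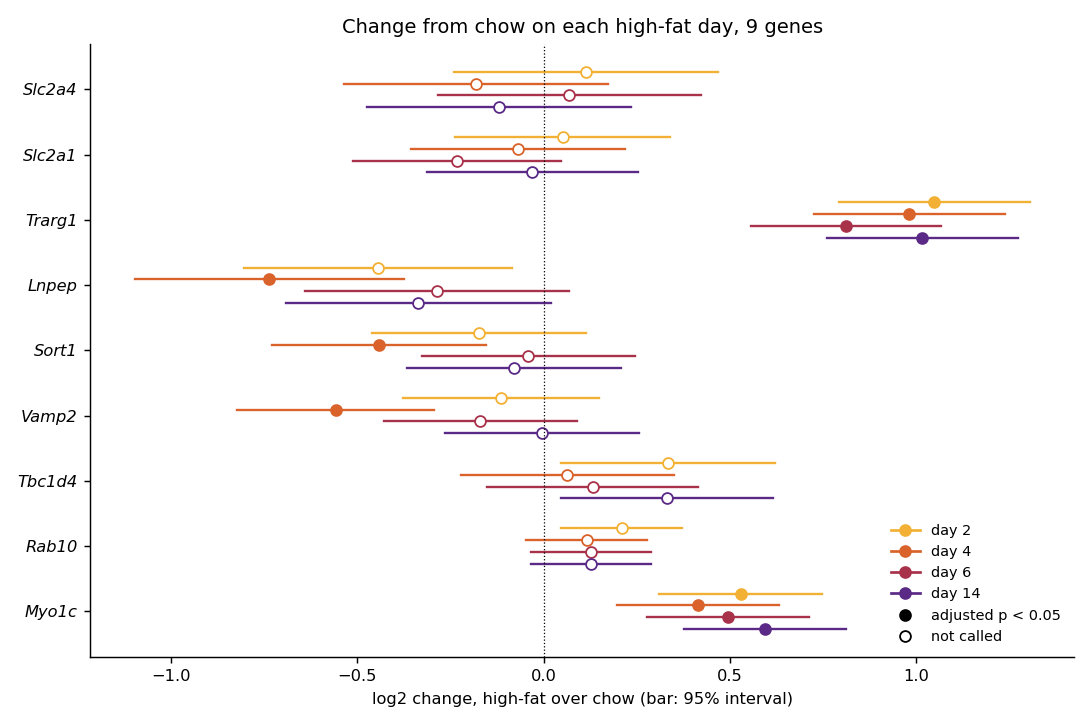
Log2 change of HFD over chow (x axis) on each HFD day for 9 of the 10 genes (y axis), with 95% intervals from edgeR's quasi-likelihood fit. Filled points passed an adjusted p under 0.05. Trarg1 and Myo1c are filled on all 4 days, and Lnpep, Sort1 and Vamp2 on day 4 only. Slc2a5 is left out because its counts are too few for a stable fitted change.

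Because Trarg1 and Slc2a4 encode partners in the same vesicles, their reads were also compared within each library, where library scaling has no part. The mean ratio of Trarg1 reads to Slc2a4 reads was 1.56 ± 0.18 on chow and 3.00 ± 0.68 on day 2. It was 3.56 ± 0.63 on day 4, 2.67 ± 0.63 on day 6 and 3.42 ± 0.45 on day 14 (SD, n = 4 each). The lowest HFD library, day 6 replicate 2, had a ratio of 2.07 and the highest chow library, replicate 2, one of 1.79. On the log2 scale the ratio averaged 1.63 ± 0.31 in HFD libraries (n = 16) and 0.64 ± 0.17 on chow (n = 4). The difference of 0.99 corresponds to a 1.99-fold higher ratio (exact two-sided permutation test over 4845 arrangements, p = 0.0004128, the smallest they can give, adjusted p = 0.000826 over 2 ratios). The difference was 0.93 to 1.06 when 1 library was left out. Because the ratio uses the Trarg1 reads tested above, its p-value is not separate support for the Trarg1 rise. For Slc2a1 over Slc2a4 the log2 ratio averaged -3.81 ± 0.26 in HFD libraries (n = 16) and -3.79 ± 0.51 on chow (n = 4). That difference was -0.03 (exact two-sided permutation test, p = 0.898, also after adjustment). Its sign turned without some libraries, over a range of -0.22 to 0.17.

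**Figure D3:**
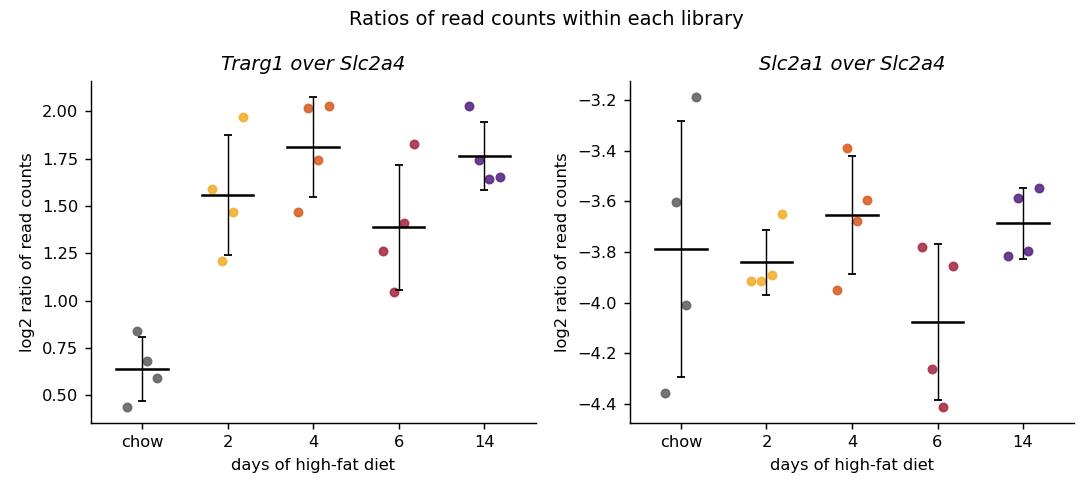
Log2 ratio of read counts (y axis) of Trarg1 over Slc2a4 and of Slc2a1 over Slc2a4 in each library, on chow and by days of HFD (x axis). Points are libraries, and lines give the mean and SD of 4. For Trarg1 over Slc2a4 all 16 HFD libraries lie above the 4 chow libraries.

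The 3 other vesicle genes did not follow Trarg1. Lnpep (ENSMUSG00000023845) encodes IRAP, an insulin-regulated aminopeptidase that travels with GLUT4. Lnpep measured 116, 156, 163 and 119.8 CPM in the 4 chow libraries on day 0, and 91.7, 115, 119 and 79.5 CPM on day 2. It measured 107, 85.7, 70.8 and 68.6 CPM on day 4, 144, 122, 95.1 and 93.4 CPM on day 6 and 102, 112, 102 and 124 CPM on day 14. It was lowest in day 4 replicates 3 and 4, and on day 4 alone its libraries did not overlap with chow. Its log2 change was -0.74 ± 0.17 on day 4 (adjusted p = 0.00418, edgeR quasi-likelihood test). It was -0.44 ± 0.17 on day 2 (adjusted p = 0.116), -0.29 ± 0.17 on day 6 (adjusted p = 0.302) and -0.34 ± 0.17 on day 14 (adjusted p = 0.306) in edgeR's quasi-likelihood test. Averaged over HFD days Lnpep fell by 0.45 ± 0.13 on the log2 scale (adjusted p = 0.0204, edgeR quasi-likelihood test), a call lost when chow replicate 2 or 3 was left out, and when chow replicate 4 and day 2 replicate 1 were left out together.

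Sort1 (ENSMUSG00000068747) encodes sortilin, which sorts cargo into the forming vesicles. Sort1 measured 723, 894, 793 and 664 CPM in the 4 chow libraries on day 0, and 659, 780.0, 679 and 604 CPM on day 2. It measured 702, 515, 530.0 and 514 CPM on day 4, 754, 892, 757 and 584 CPM on day 6 and 651, 758, 730.0 and 771 CPM on day 14. The antisense gene Gm12523, which overlaps 338 exon bases of Sort1 in GENCODE vM21, had 410.0 reads, against 245488 of Sort1. Day 4 replicates 2, 3 and 4 were the lowest of all 20 libraries, and day 4 replicate 1 lay among the chow values. The log2 change on day 4 was -0.44 ± 0.14 (adjusted p = 0.0190, edgeR quasi-likelihood test), and the groups overlapped. That call was lost without chow replicate 2 or without day 4 replicate 2, 3 or 4, with an adjusted p of up to 0.0677 in that test. On the other days the change was -0.17 (day 2), -0.04 (day 6) and -0.08 (day 14), with adjusted p of 0.445 to 0.891 in edgeR's quasi-likelihood test.

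Vamp2 (ENSMUSG00000020894) encodes the vesicle SNARE protein that drives fusion with the plasma membrane. Vamp2 measured 89.1, 91.9, 90.2 and 88.6 CPM in the 4 chow libraries on day 0, and 82.5, 102, 80.8 and 65.9 CPM on day 2. It measured 72.8, 55.7, 56.8 and 58.1 CPM on day 4, 86.6, 88.8, 77.7 and 66.8 CPM on day 6 and 104, 93.2, 80.1 and 79.9 CPM on day 14. The chow libraries lay close together, and all 4 day 4 libraries lay below them. Here too day 4 replicate 1 was the highest of its group. The log2 change on day 4 was -0.56 ± 0.13 (adjusted p = 0.00355, edgeR quasi-likelihood test), and the call held in all 20 fits without 1 library. On day 2 it was -0.12, on day 6 -0.17 and on day 14 -0.01, with adjusted p of 0.409 to 0.994 in the same test.

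Against chow on single days, Lnpep, Sort1 and Vamp2 passed the test on day 4, and Lnpep was also called over the mean of HFD days. In day 4 replicates 2 to 4, the low libraries of Sort1 and Vamp2, the sum of adipocyte markers was low. Of those 10 markers, 5 had a day 4 change above 0. The sums for dividing cells and endothelium were high in the same libraries, as given above. In day 4 replicate 1 the sums were 34043 CPM for adipocyte markers, 51.6 CPM for dividing cells and 1005 CPM for endothelium. The part of that difference in these falls was not tested. No comparison between HFD days called any of the 10 genes. For day 4 against day 2, 2.4% of all genes were called, and for day 6 against day 4, day 14 against day 6 and day 14 against day 2 0% of all genes. In edgeR's quasi-likelihood test 1, 3, 1 and 1 of the 10 genes had an unadjusted p under 0.05 in those 4 comparisons. DESeq2 called 1, 0, 0 and 0 of the 10, the 1 being Vamp2 for day 4 against day 2. Its log2 change there was -0.44 ± 0.13 (adjusted p = 0.0664, edgeR quasi-likelihood test).

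Among the genes of the transport machinery, Myo1c (ENSMUSG00000017774) rose on every HFD day. It encodes an unconventional myosin, a motor that helps GLUT4 vesicles reach and fuse with the plasma membrane. Myo1c measured 506, 463, 443 and 396 CPM in the 4 chow libraries on day 0, and 743, 602, 572 and 693 CPM on day 2. It measured 634, 582, 587 and 608 CPM on day 4, 558, 684, 699 and 607 CPM on day 6 and 721, 674, 692 and 643 CPM on day 14. No HFD library reached down to the highest chow library (replicate 1). The log2 change was 0.53 ± 0.10 on day 2 (adjusted p = 0.0142), 0.41 ± 0.10 on day 4 (adjusted p = 0.00605), 0.49 ± 0.10 on day 6 (adjusted p = 0.0280) and 0.59 ± 0.10 on day 14 (adjusted p = 0.00862), all in edgeR's quasi-likelihood test. The calls on days 4 and 14 held in all 20 fits without 1 library. On day 2 the call was lost without chow replicate 4, day 2 replicate 1 or day 2 replicate 4. On day 6 it was lost without chow replicate 4 or day 6 replicate 2, 3 or 4. Without both chow replicate 4 and day 2 replicate 1, edgeR's quasi-likelihood test gave an adjusted p of 0.150 on day 2, 0.130 on day 6 and 0.0512 on day 14. The Myo1c change in that fit was 0.43 (day 2), 0.44 (day 6) and 0.54 (day 14).

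Tbc1d4 (ENSMUSG00000033083), the gene of AS160, which holds the vesicles back until insulin acts, passed the test on no day. Tbc1d4 measured 82.6, 71.4, 93.8 and 62.7 CPM in the 4 chow libraries on day 0, and 104, 94.2, 95.6 and 99.5 CPM on day 2. It measured 86.1, 75.2, 81.4 and 81.5 CPM on day 4, 98.4, 80.9, 87.4 and 73.8 CPM on day 6 and 71.3, 92.4, 114 and 115 CPM on day 14. The day 2 libraries lay just above all chow libraries, and the other groups overlapped with chow. The log2 change was 0.33 ± 0.14 on day 2 (adjusted p = 0.136), 0.06 ± 0.14 on day 4 (adjusted p = 0.748), 0.13 ± 0.14 on day 6 (adjusted p = 0.572) and 0.33 ± 0.14 on day 14 (adjusted p = 0.204) in edgeR's quasi-likelihood test. On day 4 its sign turned with scaling by library size only (-0.04).

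Rab10 (ENSMUSG00000020671), the Rab GTPase that AS160 acts on in fat cells, also passed it on no day. Rab10 measured 166, 159, 156 and 145 CPM in the 4 chow libraries on day 0, and 193, 177, 173 and 181 CPM on day 2. It measured 174, 163, 171 and 168 CPM on day 4, 171, 169, 180.5 and 162 CPM on day 6 and 151, 158, 183 and 191 CPM on day 14. The day 2 libraries lay above all chow libraries, and the other groups overlapped with chow. Its log2 change on day 2 was 0.21 ± 0.08, with an adjusted p of 0.106 in edgeR's quasi-likelihood test and 0.0467 in DESeq2. On the later days it was 0.12 (day 4), 0.13 (day 6) and 0.13 (day 14). On day 6 it was -0.01 with scaling by library size only. The antisense gene Rab10os shares 143 exon bases with Rab10 in GENCODE vM21 and had 6317 reads, against 56964 of Rab10. The strand setting of the counting is not given in the sources used here, so reads of the shared stretch cannot be told apart.

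The order of levels was compared per kilobase of merged exons (GENCODE vM21), as CPM per kb. In HFD libraries Trarg1 averaged 199.9 ± 23.1 CPM per kb, Myo1c 97.8 ± 8.79, Sort1 89.8 ± 14.4 and Slc2a4 61.8 ± 11.1 (SD, n = 16). Rab10 averaged 49.2 ± 3.24, Vamp2 20.5 ± 3.94, Tbc1d4 11.8 ± 1.73, Lnpep 7.21 ± 1.45, Slc2a1 4.32 ± 0.518 and Slc2a5 0.0591 ± 0.0760 CPM per kb. On chow Trarg1 averaged 102 ± 12.6 and Sort1 102 ± 13.1 CPM per kb (SD, n = 4), a difference well inside the spread. Myo1c (68.7 ± 6.93) and Slc2a4 (62.8 ± 11.96) came next and also lay within each other's spread, as did Tbc1d4 (10.1 ± 1.76) and Lnpep (9.81 ± 1.70). Trarg1 thus led the 10 genes in HFD libraries, its lowest library (152 CPM per kb) lying above the highest of Sort1 (118 CPM per kb). Exon sets of the counting annotation may differ from vM21, which would move these levels.

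Fructose use was followed past the transporter in 2 enzymes. Khk, ketohexokinase, phosphorylates fructose, and Tkfc phosphorylates the glyceraldehyde that comes from it. They belong to a list of 12 genes for hexose phosphorylation and first steps, of which 11 were tested. Khk averaged 8.87 ± 4.10 CPM (day 2), 5.81 ± 1.89 (day 4), 8.64 ± 2.32 (day 6) and 9.36 ± 0.390 (day 14), against 16.7 ± 6.95 CPM on chow (SD, n = 4 each). Its chow libraries had 11.5, 12.8, 15.9 and 26.8 CPM, the highest again being replicate 4. On day 4 Khk fell by 1.48 ± 0.32 on the log2 scale (adjusted p = 0.00271, edgeR quasi-likelihood test). On days 2, 6 and 14 its change was -0.82, -0.97 and -0.85, with adjusted p of 0.0670 to 0.141 in that test. Tkfc averaged 14.7 ± 1.90 CPM on day 2 and 13.3 ± 2.43 CPM on day 4, against 22.3 ± 4.32 CPM on chow (SD, n = 4 each). It fell by 0.57 ± 0.14 on day 2 (adjusted p = 0.0323) and by 0.74 ± 0.14 on day 4 (adjusted p = 0.00168) in edgeR's quasi-likelihood test. The day 2 call was lost without chow replicate 2 or 4 or day 2 replicate 1, 3 or 4. The day 4 calls of Khk and Tkfc held in all 20 fits without 1 library.

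Over that list on day 4, where 35.3% of all genes were called, 3 of 11 were called. 1 rose (G6pdx, the entry to the pentose phosphate route, by 0.51) and 2 fell (Khk and Tkfc). G6pdx was picked after its value was seen. On day 2, where 1.96% of all genes were called lower, 1 fell (Tkfc). On days 6 and 14 0 were called by edgeR, with 3 at an unadjusted p under 0.05 on each day. DESeq2 called 1 on day 6 and 0 on day 14, against 1180 and 659 over all genes. Without chow replicate 4 and day 2 replicate 1, edgeR called 0 on day 2 and 3 on day 4. Scaling by library size only gave 3 falls on day 6. The median log2 change over the 11 genes was 0.21 on day 2 and -0.06 on day 4, against -0.03 and -0.02 over all genes tested. Gpi1, glucose-6-phosphate isomerase, was called in the test of any difference (adjusted p = 0.0385, edgeR quasi-likelihood test) but on no day against chow. Its change was 0.24 on day 2 and -0.11 on day 6.

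**Figure D4:**
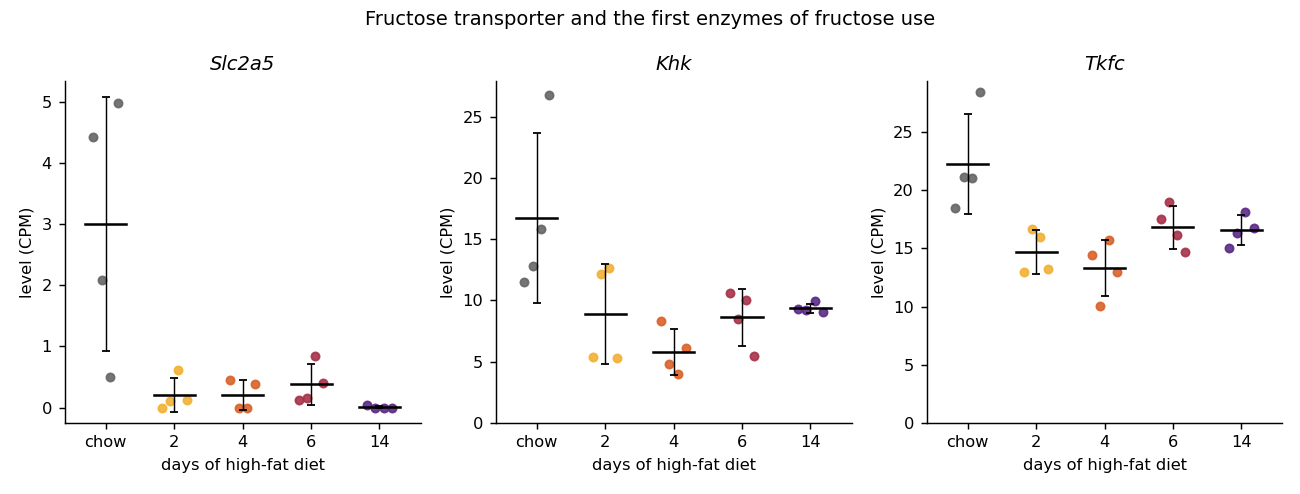
Level in CPM (y axis) of Slc2a5, Khk and Tkfc in every library, on chow and by days of HFD (x axis). Points are libraries, and lines give the mean and SD of 4. Slc2a5 does not pass 0.837 CPM in any HFD library, and chow replicate 4 is the highest library of all 3 genes.

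Of 15 other glucose transporter genes 9 were tested. None was called on days 2, 6 and 14 by edgeR (0, 0 and 2 at an unadjusted p under 0.05) or by DESeq2. On day 4, where 35.3% of all genes were called, 1 of the 9 rose and 2 fell, with a median log2 change of -0.27 (-0.02 over all genes tested), and 3 were called without chow replicate 4 and day 2 replicate 1. Slc2a10, which encodes GLUT10, rose by 1.18 ± 0.28 (adjusted p = 0.00482, edgeR quasi-likelihood test). Its day 4 libraries had 7.76, 18.9, 17.1 and 16.9 CPM, against 7.74, 7.56, 4.86 and 6.48 CPM on chow. Replicate 1 was close to the highest chow library. The dividing-cell markers summed to 51.6 CPM in replicate 1 and to 425 to 526 CPM in the other day 4 libraries. The endothelial markers summed to 1005 CPM in replicate 1 and to 1620 to 1908 CPM in the others. The part of these marker differences in the Slc2a10 rise was not tested. Slc2a3, the gene of GLUT3, changed by -1.46 ± 0.38 on day 4 (adjusted p = 0.00719, edgeR quasi-likelihood test). Slc50a1, a sugar transporter of the SWEET family, changed by -0.46 ± 0.14 (adjusted p = 0.0170, edgeR quasi-likelihood test). Slc2a3 and Slc50a1 were picked after their values were seen. The 6 genes that did not pass the filter were Slc2a7, Slc5a1, Slc5a2, Slc5a9, Slc5a10 and Slc5a11, with 1 to 125 reads over all libraries.

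A list of 56 further genes of GLUT4 traffic, all tested, held 17 that rose and 4 that fell on day 4 in edgeR's test. These are 21 of 56, where 35.3% of all genes were called. On day 2, 3 rose (Scamp3, Rhoq and Sec16a), on day 6 1 (Rhoq) and on day 14 1 (Sec16a), and none fell on those days in that test. Of all genes, 4.39%, 3.45% and 1.18% were called on those days. DESeq2 called 6 higher and 1 lower on day 2, 17 and 5 on day 4, 4 and 0 on day 6, and 3 and 2 on day 14. Over all genes DESeq2 called 1412, 5483, 1180 and 659 on these days. The median log2 change was 0.01 (day 2), 0.12 (day 4), 0.06 (day 6) and 0.04 (day 14), against -0.03, -0.02, -0.01 and -0.01 over all genes tested. The direction depends on the scaling: by library size only, 8 rose and 10 fell on day 4, 2 fell and 0 rose on day 2 and on day 6, and 1 fell and 0 rose on day 14. The day 4 calls stand beside the marker sums of day 4 replicates 2 to 4 given above, whose part in them was not tested. The day 2 calls fell to 0 without chow replicate 2, 3 or 4 or day 2 replicate 1 or 4. Those on day 4 ranged over 14 to 22 without 1 library, and were 16 without chow replicate 4 and day 2 replicate 1. The day 6 call was lost without chow replicate 2, 3 or 4, day 4 replicate 4, day 6 replicate 2, 3 or 4, or day 14 replicate 2. The day 14 call was lost without chow replicate 3 or 4.

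Vamp3, a vesicle SNARE related to Vamp2, went the opposite way on day 4. It rose by 0.69 ± 0.12 (adjusted p = 0.00115, edgeR quasi-likelihood test) to 143 ± 15.5 CPM on day 4, against 88.7 ± 6.93 CPM on chow (SD, n = 4 each). Snap23, its partner SNARE on the plasma membrane, rose by 0.47 ± 0.10. The exocyst subunits Exoc5 and Exoc4, which tether vesicles, rose by 0.62 ± 0.14 and 0.47 ± 0.13 on day 4. Rhoq, the small GTPase TC10, rose by 0.43 ± 0.10 on day 2, 0.50 ± 0.10 on day 4 and 0.45 ± 0.10 on day 6. On day 14 it was 0.42 ± 0.10, with an adjusted p of 0.0534 in edgeR's quasi-likelihood test. Sec16a, which organises exit sites of the endoplasmic reticulum, had 145, 146, 149 and 162 CPM on day 14, against 124, 124, 119 and 120.5 CPM on chow. Every HFD library of Sec16a lay above every chow library, and its changes were 0.26 (day 2), 0.29 (day 4), 0.21 (day 6, adjusted p = 0.0554, edgeR quasi-likelihood test) and 0.31 (day 14).

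The 4 traffic genes that fell on day 4 were Doc2b, Ralgapa2, Vti1a and Dennd4c. Of the traffic genes named here, only Vamp3, Sec16a, Rhoq and Doc2b follow from the rule for naming, and the others were picked after their values were seen. Doc2b, a calcium sensor of vesicle fusion, fell by 2.61 ± 0.56 on the log2 scale (adjusted p = 0.00276, edgeR quasi-likelihood test) at low levels. It had 0.509, 0.210, 0.222 and 0.785 CPM on day 4, against 1.57, 6.63, 2.30 and 2.46 CPM on chow. Ralgapa2, a subunit of the complex that restrains Ral GTPases, fell by 0.80 ± 0.20. Dennd4c, an activator of Rab10, fell by 0.35 ± 0.13 and Vti1a, a SNARE of internal membranes, by 0.37 ± 0.12. On the other days Doc2b was lower without passing the test (-1.44, -1.43 and -1.12 on days 2, 6 and 14).

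A list of 15 known regulators of Slc2a4 transcription was tested whole. Of the 15, 4 rose on day 2, where 4.39% of all genes were called, and 5 rose and 3 fell on day 4, where 35.3% were called. On days 6 and 14, 0 were called by edgeR or DESeq2 (2 and 3 at an unadjusted p under 0.05 in edgeR). The median log2 change was 0.35 (day 2), 0.12 (day 4), 0.09 (day 6) and 0.13 (day 14), and that of all genes tested was -0.03, -0.02, -0.01 and -0.01 on those days. Those genes beyond Nfic, Ebf1, Nfib and Srebf1 that follow were picked after their values were seen. Srebf1, the gene of the lipogenic factor SREBP1, rose by 0.85 ± 0.18 on day 2 (adjusted p = 0.0150) and 0.48 ± 0.17 on day 4 (adjusted p = 0.0384) in edgeR's quasi-likelihood test. Its day 4 call was lost without chow replicate 2 or 4 or day 4 replicate 1, 3 or 4, with an adjusted p of up to 0.132 in that test. Nfic rose by 0.70 ± 0.16 on day 2 and 0.80 ± 0.16 on day 4, and Nfib by 0.45 ± 0.10 and 0.42 ± 0.10. Both encode nuclear factor 1 proteins. Mef2d, an activator of the Slc2a4 promoter, rose by 0.35 and 0.40, and Nr1h3 (the gene of LXR alpha) by 0.40 on day 4. Ebf1, a factor of fat cell differentiation, fell by 0.74 ± 0.15 on day 4, Klf15 by 0.69 ± 0.20 and Nr1h2 (LXR beta) by 0.29 ± 0.09. Ebf1 had 150.3, 89.1, 93.4 and 93.6 CPM on day 4, against 212, 175, 173 and 157 CPM on chow, and day 4 replicate 1 was again the library nearest to chow. The day 2 count fell to 0 without chow replicate 2 or 4 or day 2 replicate 1 or 4. The day 4 count was 5 without day 4 replicate 4 and 6 without chow replicate 4 and day 2 replicate 1.

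The genes whose pattern over the 20 libraries was most like Trarg1 were Ehd2, Noct, Ehbp1l1, Rhbdf1 and Dolk. Likeness was the root mean square difference of log2 CPM after each gene was centred on its own mean. It was 0.17 for Ehd2 and 0.20 for Dolk, against a median of 0.46 over the 10840 genes compared. Ehd2 encodes an ATPase at the neck of caveolae, and Noct the phosphatase nocturnin. Since Trarg1 differs between HFD and chow libraries, genes like it do too, and their changes are given as a description. Ehd2 changed by 0.71 (day 2), 0.78 (day 4), 0.79 (day 6) and 0.72 (day 14). It averaged 1712 CPM on day 14, against 1039 CPM on chow. Noct changed by 0.93, 0.98, 0.79 and 1.10 on the same days, Ehbp1l1 by 0.82, 0.95, 0.60 and 0.62, and Rhbdf1 by 0.68, 0.69, 0.46 and 0.59.

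The genes most like Slc2a4 were Mrps15, Dgcr6, Pgm1, Fcor and Agpat3, at 0.13 for Mrps15 and 0.14 for Agpat3, against a median of 0.32. Pgm1, phosphoglucomutase, links glucose to glycogen and is also in the list of hexose genes. Agpat3 is an acyltransferase of lipid synthesis. None of these 5 was called on any HFD day against chow. Since they were chosen for likeness to Slc2a4, which was not called, this follows largely from the choice. Their log2 changes on day 4 ran from -0.25 (Mrps15) to 0.00 (Dgcr6), and that of Slc2a4 was -0.18.

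**Figure D5:**
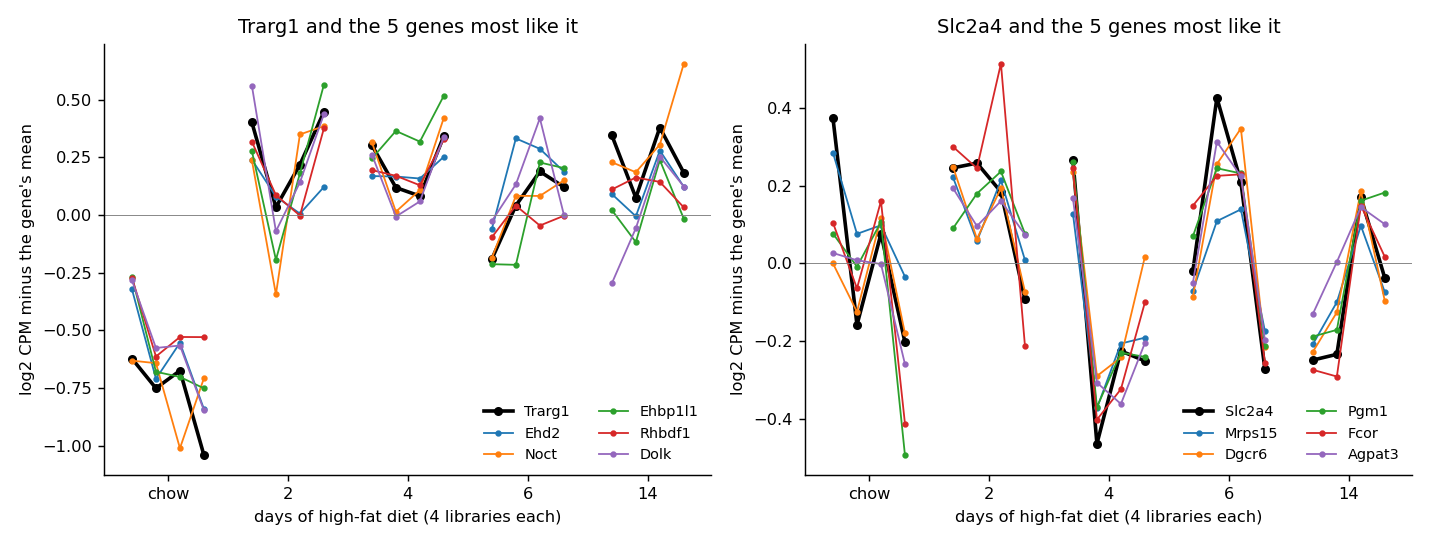
Log2 CPM minus the gene's own mean (y axis) in each of the 20 libraries, grouped by chow and days of HFD (x axis), for Trarg1 (left) and Slc2a4 (right) with the 5 genes most like each. Lines join the 4 libraries of a group and show no order. Trarg1 and its 5 genes lie below their means in all 4 chow libraries, while the Slc2a4 set varies within groups.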

How the data were processed

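The deposited table holds raw read counts per gene for the 20 libraries. Per the labels' protocols, RNA was extracted with the RNeasy Mini Kit and libraries were made with a TruSeq RNA kit. Per the submitters' processing notes, CASAVA, STAR, featureCounts, limma and R 3.0 were used. The genome build, the annotation, the strand setting and the treatment of reads that match several genes are not given in the sources used here, so a read shared by near-identical or overlapping genes may be split or lost. The counts were used as deposited. Of the 39179 Ensembl gene IDs, 37607 had a symbol in the gene name table.

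Genes were kept by edgeR's filterByExpr (minimum count 10, minimum total 15), and the 15254 genes kept held 99.5% or more of every library. Counts were scaled by TMM and fitted with edgeR 4.0.16 (R 4.3.3) in a robust quasi-likelihood model of the 5 groups with 15 residual degrees of freedom. Library totals bound precision at low counts, and counting intervals and limits cover counting error only, since the reads carry no molecular identifiers that the labels name. Ratios within a library used log2 of the ratio of counts, with nothing added, and an exact permutation test over libraries (scipy 1.17.1). Adding 0.5 to each count was an alternative setting. Exon lengths came from GENCODE vM21 and promoters from RefSeq, and neither was used for the counts.

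The 10 genes and all gene lists were chosen with earlier results of these data known. Besides the 10, the genes named from each list are up to 4 with the smallest adjusted p among those called in the test of any difference, and the 5 genes most like Trarg1 or Slc2a4 of at least 5 mean CPM. Others are said to be picked after their values were seen. Alternatives were DESeq2's size factors (RLE), library size only, no filter, a filter at 1 CPM in 4 libraries with a mean over 2, DESeq2 1.42.0, limma-voom (limma 3.58.1), a fit of only the groups compared, a replicate block, a threshold of 0.01 and each library left out in turn. A fit without chow replicate 4 and day 2 replicate 1 was chosen after seeing the data.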

Additional observations from a re-analysis of the deposited data

Results flagged for a closer look

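In 3 of the 50 gene and group combinations of the 10 genes, 1 library lay far from the other 3 of its group by Dixon's criterion, and chance gives about 1 in 20. On day 4, replicate 1 had 702 CPM of Sort1, against 514 to 530.0 CPM in the other day 4 libraries. The same library had 72.8 CPM of Vamp2, against 55.7 to 58.1 CPM in the others. This library also differed from the others of its group in summed markers of adipocytes (34043 CPM, against 21769 to 23464 CPM) and of dividing cells (51.6 CPM, against 425 to 526 CPM). Its endothelial markers summed to 1005 CPM, against 1620 to 1908 CPM. The part of these differences in the Sort1 and Vamp2 levels was not tested. On day 14, replicate 1 had 0.0385 CPM of Slc2a5, which is 1 read, and the other libraries had 0. Any single read beside libraries at 0 meets the criterion, so the rate above does not apply to this flag.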

How the results depend on the processing

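Library totals of 1916829 to 38832429 counts limit what can be seen of Slc2a5, whose stricter-filter value could not be given because the gene was removed. Slc2a5 was also removed in the fits of only chow with day 4 and of only chow with day 14. Without 1 library, the number of the 10 genes called ranged over 1 to 3 on day 2 (1 without chow replicate 4 or day 2 replicate 1 or 4), 5 to 6 on day 4, and 1 to 3 on day 6 (1 without chow replicate 4 or day 6 replicate 2, 3 or 4). It was 3 on day 14 throughout, 3 to 5 for the mean of HFD days, and 3 to 6 for any difference (3 without day 4 replicate 2, 3 or 4). It ranged over 0 to 1 for day 4 against day 2 and 0 to 2 for day 6 against day 4 (2 without day 4 replicate 1). A fit of only the groups compared called 1 gene on day 2 and 0 on day 6, against 177 and 0 over all genes. A threshold of 0.01 called 1 on each of these days and 3 for any difference, against 39, 11 and 445 over all genes. Limma-voom called 3 for any difference, against 2235 over all genes. Without chow replicate 4 and day 2 replicate 1 the counts were 1 on day 2, 0 on day 6 and 3 for any difference. Over all genes they were 7, 3 and 755. For day 4 against day 2, DESeq2 called 1 gene, Vamp2, which was also the 1 gene called with the replicate block. In that fit Vamp2 was called for the mean of HFD days too, and the counts of members called on days 2, 4, 6 and 14 were 3, 6, 3 and 3. Between groups, libraries with the same number had a mean correlation of deviations of 0.06 (40 pairs, -0.19 to 0.52, 12 over 0.1). For libraries with other numbers the mean was -0.02. By mean correlation, 10 of 20 libraries were closest to those of their own number. These values do not settle whether libraries with the same number pair.

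Signs turned only for changes that had not passed the test. With library size only they were -0.0709 for Slc2a1 on day 2, -0.0404 for Tbc1d4 on day 4, and -0.0647 for Slc2a4 and -0.0058 for Rab10 on day 6. Without chow replicate 4 and day 2 replicate 1 they were 0.0774 for Slc2a1 and -0.0332 for Tbc1d4 on day 4, -0.0001 for Slc2a4 on day 6 and 0.1246 for Slc2a1 on day 14. That fit also put the difference in the ratio of Slc2a1 to Slc2a4 at 0.1807, and it ranged over -0.2161 to 0.1741 without 1 library. Without 1 library, Slc2a1 ranged over -0.01 to 0.2009 (day 2), -0.1488 to 0.0709 (day 4) and -0.1012 to 0.1143 (day 14). Slc2a4 ranged over -0.0548 to 0.1995 on day 6 and -0.2113 to 0.0126 on day 14, and Tbc1d4 over -0.0389 to 0.17 on day 4. Sort1 ranged over -0.1373 to 0.0617 on day 6 and -0.1476 to 0.0047 on day 14, and Vamp2 over -0.0847 to 0.0455 on day 14. The causes were not tested.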
